A study of Mus musculus with 6 samples.

Results

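The antioxidant, glutathione and iron handling genes of haematopoietic stem cells (HSCs) form a set of 37 genes, chosen by name from the known enzymes, carriers and regulators of these systems. All 37 were found among the 18368 genes of the read count table, out of 35275 genes in the wider table of normalised levels. The libraries came from about 2000 sorted HSCs each, taken from the bone marrow of adult mice. Of the 6 libraries, 3 came from Ramp1+/+ mice (wild type) and 3 from mice labelled Ramp1 mutant, with the genotype written as Ramp-/-. Ramp1 encodes the accessory protein of the receptor for the neuropeptide CGRP, which sensory nerves release, and the question here is whether its loss went with other levels of these transcripts. No treatment is named, and the labels give neither the part of Ramp1 that is removed, the cells it is removed from, the sex of the mice nor whether each library is a separate animal. P-values therefore measure only the spread between these libraries, which may be technical in part. Replicate 1 of wild type and mutant had 6527 and 6137 Y-linked reads, and 10 and 5 reads of Xist, which female cells express. The other libraries had 0 to 2 Y-linked and 1456 to 3540 Xist reads. By these reads each group held male and female cells, so its spread is not technical alone.

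Aerobic metabolism releases superoxide, which superoxide dismutases turn into hydrogen peroxide. Peroxide is then removed by catalase, by peroxiredoxins that thioredoxin keeps reduced, and by glutathione peroxidases that spend glutathione. Free ferrous iron turns peroxide into far more reactive radicals, so ferritin, which stores iron, and the transferrin receptor, which brings it in, belong to the same defence. Long-lived HSCs are known to keep oxidant levels low, and high levels drive them out of quiescence.

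No gene of the set passed the test between genotypes. edgeR's quasi-likelihood test on read counts called 0 of the 37 at an adjusted p under 0.05, against 0.0208% of all 14443 genes tested. At an unadjusted p under 0.05 it called 0 of 37 as well, against 3.99% of all genes. DESeq2 on the same counts called 0 of 37 after adjustment, against 0.265% of its genes, and 1 at an unadjusted p under 0.05, which was Tfrc, against 3.98% of all genes. No member passed in the authors' deposited table, against 0.231% of its genes, and Tfrc was again the 1 with an unadjusted p under 0.05, against 3.88% of its genes. Fold changes were above 0 for 16 genes and below 0 for 21, so 43.2% were higher in mutant cells, against 50.1% of all genes tested. The median log2 fold change was -0.035 over the set and 0.00030 over all genes. The 3 mutant values lay wholly above the 3 wild-type values in scaled counts for 2 genes, Txnrd2 and Hmox2, and below them for 0 genes. That is 5.41% of the set against 10.3% of all genes, of which 5.87% were separate with higher and 4.38% with lower mutant values. These shares were near or under the background.

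The intervals show how large a difference these libraries leave possible. For 29 of the 37 genes the 95% interval of the fold change lay wholly within 1.5-fold in either direction, and for 34 within 2-fold. The 3 genes whose intervals reached beyond 2-fold were Gpx3, Gpx8 and Tfrc, all of them low. The plot of fold changes by system shows the narrow intervals of the abundant genes beside the wide ones of these 3.

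**Figure D1:**
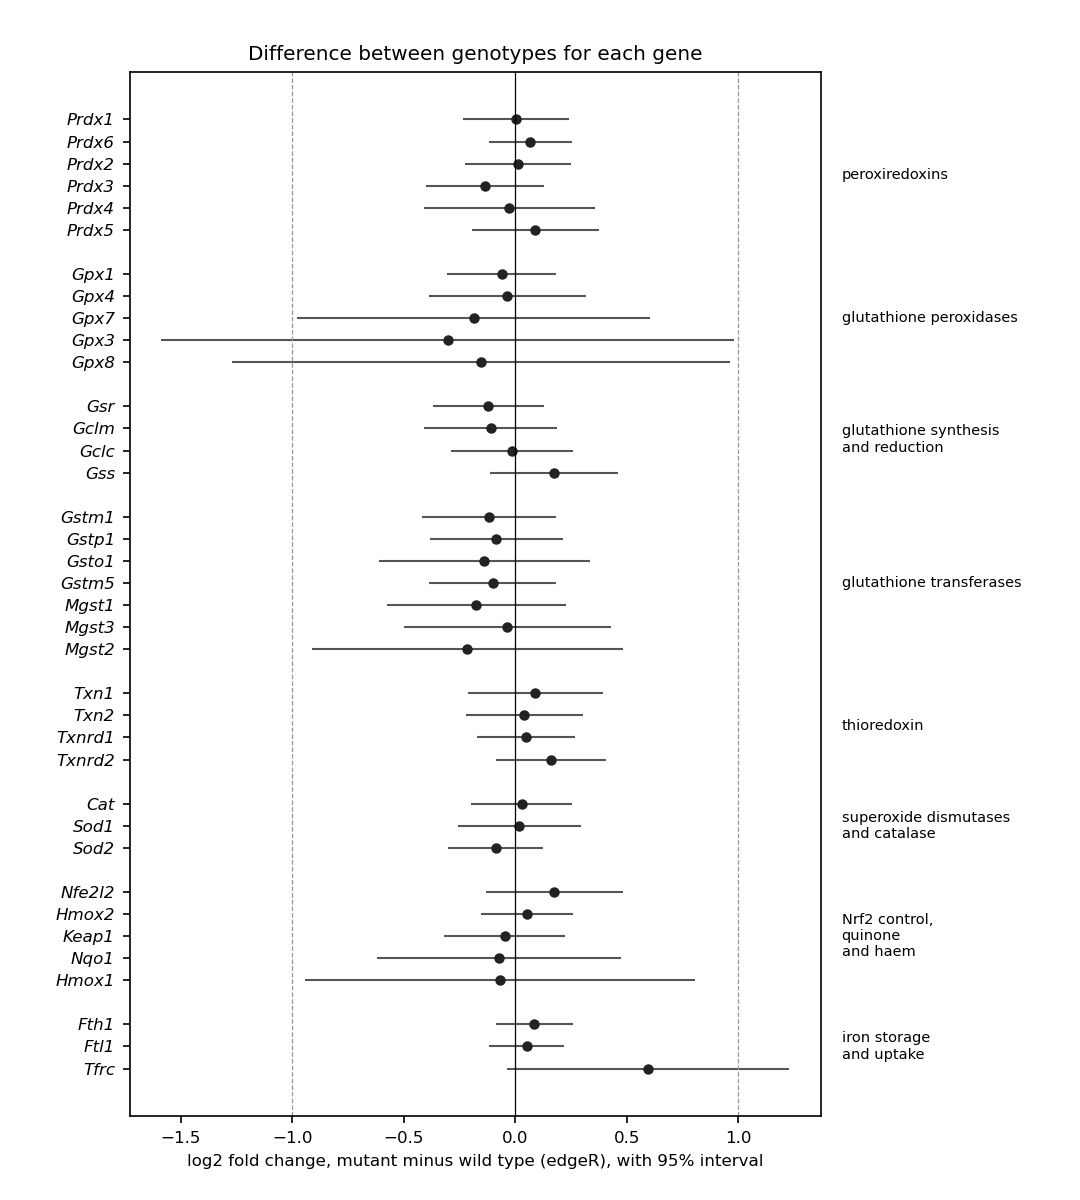
Log2 fold change (mutant minus wild type, x axis) of each gene, with its 95% interval from edgeR as a horizontal line, by system; dashed lines mark -1 and 1. All 37 intervals cross 0, and Tfrc has the highest value at 0.60.

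Most of the set was strongly expressed. Levels are given in FPKM, read counts scaled to gene length and library size. This allows genes of different length to be compared only as far as the length used per gene matches the transcripts present. Over the 6 libraries 15 genes averaged at least 100 FPKM, 16 lay between 10 and 100, and 6 were under 10. Together the 37 genes held 1.72% ± 0.015 of all FPKM in wild-type cells and 1.71% ± 0.041 in mutant cells (SD, n = 3 each). The highest library of a gene was less than 1.5 times its lowest for 27 genes, and more than 2 times for 4, which were Gpx3, Gpx7, Hmox1 and Tfrc.

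**Figure D2:**
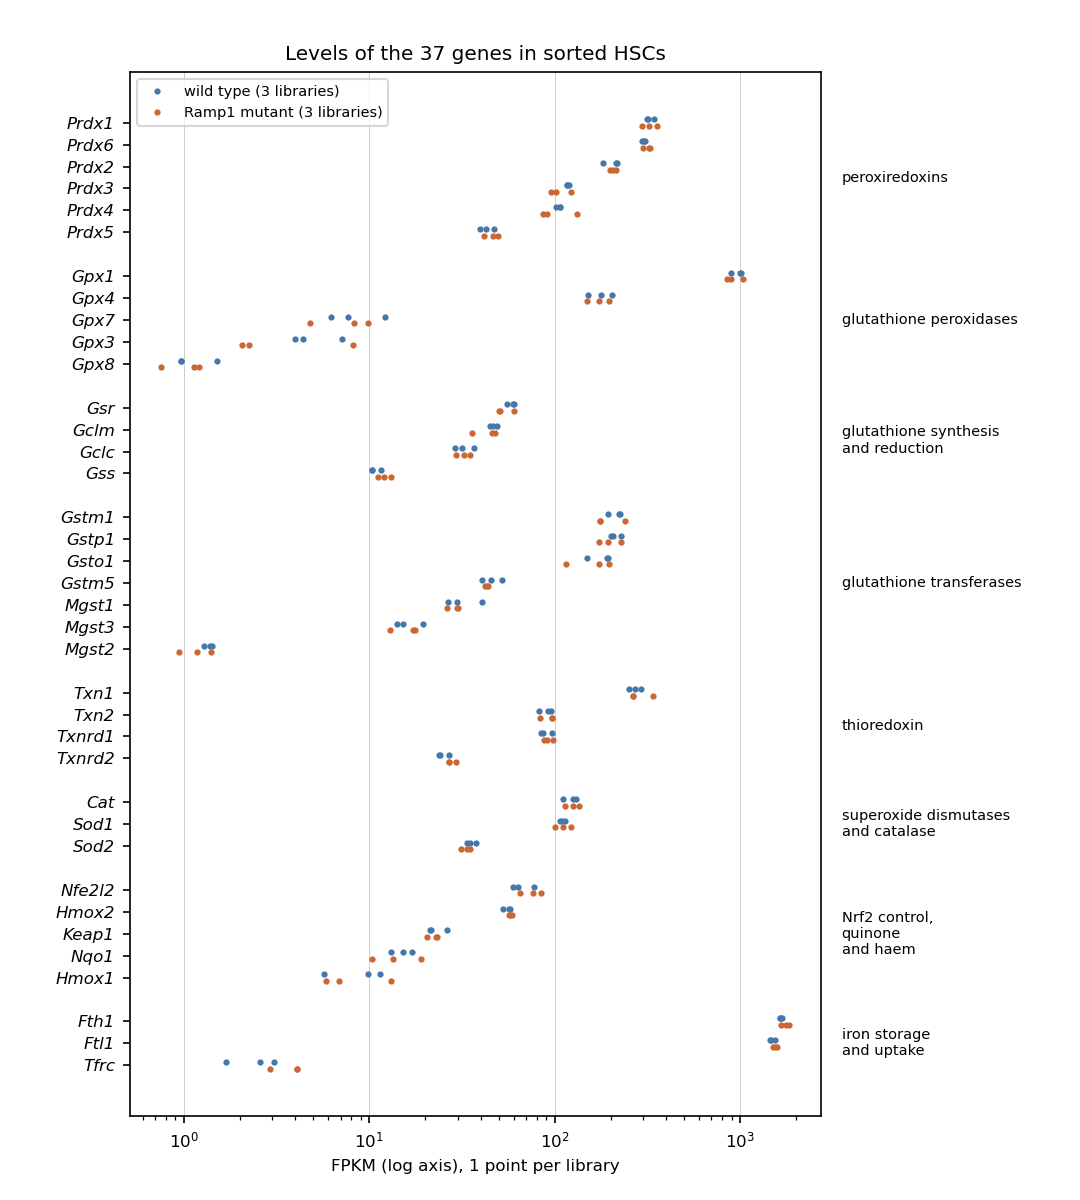
FPKM of the 37 genes on a log axis, 1 point per library, wild type in blue and mutant in orange, ordered by mean level within each system. The groups overlap in every row, from Fth1 at 1632 to 1841 FPKM down to Gpx8 at a mean of 1.09 FPKM.

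Iron storage stood at the top. Fth1 encodes the ferritin heavy chain, which oxidises ferrous iron so that it can be stored, and Ftl1 the light chain, which helps to form the mineral core. Fth1 had 1635, 1632 and 1689.5 FPKM in the wild-type libraries and 1759, 1841 and 1656 FPKM in the mutant libraries. It ranked 6 of 35275 genes by mean FPKM. Mutant replicates 1 and 2 were above all wild-type libraries and mutant replicate 3 was among them, and the log2 fold change was 0.086 (95% interval -0.087 to 0.26; edgeR adjusted p = 0.999). Ftl1 had 1459.6, 1546 and 1452 FPKM in the Ramp1+/+ libraries and 1579, 1533 and 1505 FPKM in the mutants, with overlapping groups. Its fold change was 1.04 (interval 0.92 to 1.17), and it ranked 9. Of the 50-base stretches of the Ftl1 transcript, 78.9% also occur in transcripts of 15 other annotated genes, Ftl1-ps1 most of all, so its counts may be shared with them. The ratio of Fth1 to Ftl1 FPKM stayed between 1.06 and 1.20 in the 6 libraries, at 1.11 ± 0.054 in the Ramp1+/+ libraries and 1.14 ± 0.055 in mutant cells (SD, n = 3 each; exact two-sided permutation test of log2 ratios, p = 0.7).

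Tfrc, which encodes the transferrin receptor that takes up iron-loaded transferrin, was the member with the largest difference and the smallest p. It had 2.58, 3.08 and 1.69 FPKM in the Ramp1+/+ libraries and 2.93, 4.08 and 4.10 FPKM in the mutants. Mutant replicates 2 and 3 were the highest of the 6 libraries, while mutant replicate 1 was below wild-type replicate 2, so the groups overlapped. The means were 2.45 ± 0.705 and 3.70 ± 0.668 FPKM (SD, n = 3 each). On the log2 scale the fold change was 0.60 (SE 0.27; interval -0.037 to 1.23), with an edgeR unadjusted p of 0.0617 and an adjusted p of 0.999. The value lay between 0.38 and 0.82 over 14 other settings of the analysis, the lowest without wild-type replicate 3 and the highest without wild-type replicate 2. The authors' deposited table gives 0.59 with an unadjusted p of 0.0411 and an adjusted p of 0.9998. Tfrc RNA was scarce beside that of Fth1 in every library: the ratio of Tfrc to Fth1 FPKM was 0.0015 ± 0.00045 in the Ramp1+/+ libraries and 0.0021 ± 0.00041 in mutant cells (exact two-sided permutation p = 0.2).

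The transcripts of these 3 genes carry iron-responsive elements, short stem-loops that iron regulatory proteins bind when iron is scarce. Binding in the 5′ UTR blocks translation of ferritin, while binding in the 3′ UTR protects the Tfrc transcript from decay, so Tfrc RNA is known to be kept when iron is scarce. For each gene the GENCODE M21 transcript with the longest coding sequence (build GRCm38, the same as mm10) was searched on the transcript strand. The search was for the iron-responsive element core, a C, 5 further bases, the loop CAGTGN and 5 bases that pair with those 5, G-T pairs allowed. Elements found only in other transcripts of a gene would be missed. The matches in UTRs are shown because, in the transcripts searched, they set the 2 ferritin chains and the receptor apart from the other 34 genes. Capitals mark the 6-base loop, and the sequences read 5′ to 3′ as DNA letters.
Fth1, 5′ UTR, chr19:9982738-9982754, plus strand: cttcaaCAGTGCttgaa
Ftl1, 5′ UTR, chr7:45459785-45459801, minus strand: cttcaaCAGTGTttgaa
Tfrc, 3′ UTR, chr16:32631225-32631241, plus strand: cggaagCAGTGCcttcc
Tfrc, 3′ UTR, chr16:32631604-32631620, plus strand: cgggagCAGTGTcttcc
Tfrc, 3′ UTR, chr16:32631669-32631685, plus strand: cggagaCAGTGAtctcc
Tfrc, 3′ UTR, chr16:32631716-32631732, plus strand: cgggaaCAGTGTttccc
All 6 sites lie within 1 exon each. Such a match was found in the first 200 bases of 18 of 21821 coding genes (0.082%). In annotated 3′ UTRs it was found at least once in 97 of 21645 genes (0.448%), and Tfrc, with 4 in 2461 bases, was the only gene with more than 1. The coding sequence of Keap1 also held 1 match. A match is a description of the letters and no measure of binding.

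Among the other iron and haem genes, Alas2 and Slc40a1 have the same kind of match in the 5′ UTRs of the transcripts searched. Alas2 was scarce, at 0.099 to 0.69 FPKM over the libraries. Its log2 fold change was 1.39 (SE 0.69; edgeR unadjusted p = 0.0820, adjusted p = 0.999). The site of Slc40a1, which encodes ferroportin, the only known iron exporter, is shown.
Slc40a1, 5′ UTR, chr1:45925471-45925487, minus strand: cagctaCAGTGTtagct
Slc40a1 had 5.51, 5.13 and 5.96 FPKM in the Ramp1+/+ libraries and 6.63, 8.16 and 13.1 FPKM in the mutants. All mutant libraries were above all wild-type libraries, with mutant replicate 3 far above the other 5. Its log2 fold change was 0.75 (SE 0.25; edgeR unadjusted p = 0.0169, adjusted p = 0.999), so it did not pass.

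**Figure D3:**
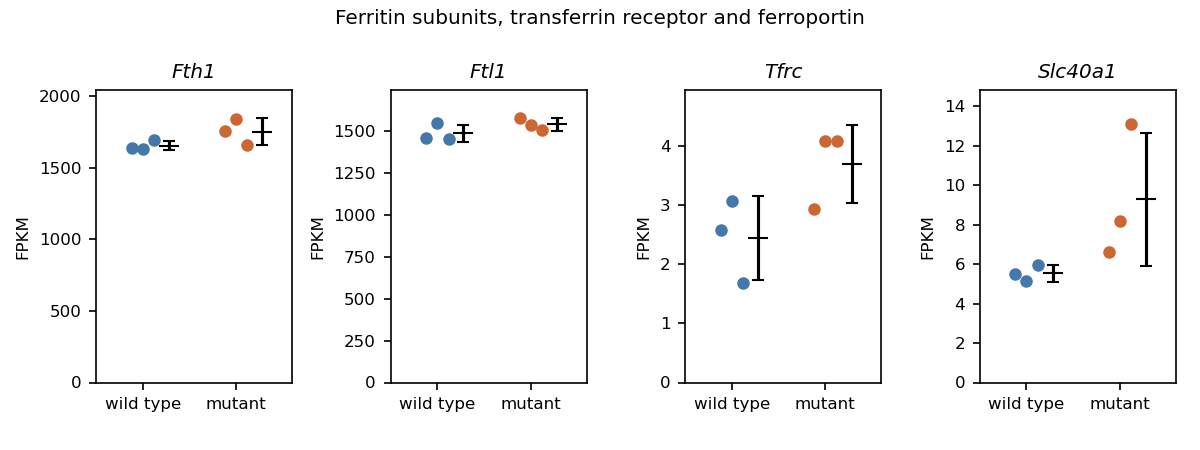
FPKM (y axis from 0) of Fth1, Ftl1, Tfrc and Slc40a1, 1 point per library, with the mean and SD of each group beside the points (n = 3). The groups overlap for Fth1, Ftl1 and Tfrc, and for Slc40a1 the mutant values, 6.63 to 13.1 FPKM, lie above the wild-type values, 5.13 to 5.96 FPKM.

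Peroxiredoxins reduce peroxide through a reactive cysteine. Prdx1 and Prdx2 act in the cytosol and nucleus, Prdx3 in mitochondria, Prdx4 in the endoplasmic reticulum, Prdx5 in several compartments, and Prdx6 uses glutathione instead of thioredoxin. By mean level they ran from Prdx1 (324 FPKM) and Prdx6 (309 FPKM) through Prdx2 (205), Prdx3 (112) and Prdx4 (104) to Prdx5 (44.5 FPKM). Prdx1 exceeded Prdx6, and Prdx3 exceeded Prdx4, in 5 of 6 libraries each, so neither pair has a fixed order in FPKM. The other steps held in 6 of 6. These orders depend on the length used per gene. It was 2294 bases for Prdx1 and 1826 for Prdx5, whose examined transcripts held only 828 and 706 different 50-base stretches. Prdx6, at 2387 bases, held 2338. Prdx1 and Prdx6 had 18428 and 18463 reads in wild-type replicate 1, so a shorter length would put Prdx1 clearly above Prdx6.

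Prdx1 had 317, 342 and 315 FPKM in the Ramp1+/+ libraries and 294, 324 and 356 FPKM in the mutants. The mutant group held both the lowest and the highest library, and the log2 fold change was 0.0025 (interval -0.23 to 0.24). Of the transcript, 29.5% of the 50-base stretches occur in other annotated transcripts, and the same holds for 9.6% of those of Prdx2. Prdx3 had 119, 116 and 117 FPKM in the Ramp1+/+ libraries and 95.5, 102 and 122 FPKM in the mutants. Mutant replicates 1 and 2 were below the wild-type libraries and mutant replicate 3 above them, with a fold change of 0.91 (interval 0.76 to 1.09; edgeR unadjusted p = 0.268). Of the 6 genes 4 had log2 fold changes above 0, and the range was -0.14 to 0.090. Prdx4 spread most among them, at 91.3, 86.9 and 131 FPKM in the mutant libraries against 102 to 107 FPKM in wild type. The ratio of Prdx1 to mitochondrial Prdx3 was 2.77 ± 0.16 in the Ramp1+/+ libraries and 3.06 ± 0.13 in mutant cells, with 1 mutant library among the wild-type values (exact two-sided permutation p = 0.2).

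Glutathione peroxidases use glutathione to reduce peroxides. Gpx1, the general cytosolic and mitochondrial enzyme, ranked 22 of all genes. Gpx4, which repairs oxidised membrane lipids and so blocks ferroptosis, followed at 175 FPKM. Gpx1 had 897, 1001 and 1009.5 FPKM in the Ramp1+/+ libraries and 897, 1040.4 and 847 FPKM in the mutants. These groups overlapped throughout, and the fold change was 0.96 (interval 0.81 to 1.14). Gpx4 was lowest in replicate 1 of both genotypes, at 152 and 149.8 FPKM, against 174 to 204 FPKM in the other 4 libraries. Its 50-base stretches are shared with annotated copies for 61.7%, and its fold change was 0.98. Gpx7 and Gpx8, enzymes of the endoplasmic reticulum, and the secreted Gpx3 were low, at means of 8.13, 1.09 and 4.66 FPKM. Gpx3 varied most of the whole set, with 7.13, 4.41 and 3.97 FPKM in the Ramp1+/+ libraries and 2.06, 8.14 and 2.25 FPKM in the mutants, a 3.95-fold range. At this spread its interval ran from 0.33-fold to 1.98-fold.

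Glutathione is made by glutamate-cysteine ligase, whose catalytic and modifier subunits are Gclc and Gclm, followed by glutathione synthetase, Gss, and it is recycled from its oxidised form by glutathione reductase, Gsr. The order Gsr, Gclm, Gclc, Gss held in 6 of 6 libraries, with means of 55.9, 45.0, 32.4 and 11.4 FPKM. Gsr had 55.1, 60.3 and 59.5 FPKM in the Ramp1+/+ libraries and 50.6, 50.1 and 59.9 FPKM in the mutants. Mutant replicates 1 and 2 were the lowest of the 6 and mutant replicate 3 was among the wild-type values, with a fold change of 0.92 (interval 0.77 to 1.09). Gss went the other way, with 11.6, 10.3 and 10.3 FPKM in the Ramp1+/+ libraries and 11.2, 13.1 and 12.1 FPKM in the mutants. Mutant replicate 1 lay inside the wild-type range, and the fold change was 1.13 (interval 0.92 to 1.38; edgeR unadjusted p = 0.200). Gclm was lowest in mutant replicate 1, at 35.9 FPKM against 45.0 to 49.1 FPKM elsewhere. That library therefore had the highest ratio of Gclc to Gclm, 0.898 against 0.6175 to 0.756 in the other 5.

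Glutathione transferases join glutathione to electrophiles. The abundant ones were the mu class Gstm1 (206 FPKM), the pi class Gstp1 (205 FPKM) and the omega class Gsto1 (169.9 FPKM), and Gstm1 and Gstp1 exchanged places, 3 libraries each way. Gstm5, also of the mu class, and the membrane-bound Mgst1, Mgst3 and Mgst2 followed at 44.6, 30.4, 16.1 and 1.27 FPKM. All 7 had log2 fold changes below 0, from -0.21 to -0.036. Gstm1 had 226, 193 and 223 FPKM in the Ramp1+/+ libraries and 239.8, 176 and 176 FPKM in the mutants. Mutant replicate 1 was the highest library of all and mutant replicates 2 and 3 the lowest, with a fold change of 0.92 (interval 0.75 to 1.14; edgeR unadjusted p = 0.394). Mgst1 had 26.5, 29.6 and 40.7 FPKM in the Ramp1+/+ libraries and 29.7, 26.1 and 30.0 FPKM in the mutants. Wild-type replicate 3 stood above the rest, and without it the log2 fold change was 0.016 in place of -0.17. Gsto1 had 115 FPKM in mutant replicate 1, against 149 to 196 FPKM in the other 5 libraries.

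As shares of all FPKM, the 7 transferases held 0.174%, 0.156% and 0.174% in the wild-type libraries and 0.149%, 0.154% and 0.156% in the mutant libraries. The mutant libraries were the lowest 3, the closest pair being wild-type replicate 2 and mutant replicate 3. This sum was described after the values were seen and has no test. In every other system the shares of the wild-type and mutant libraries overlapped. Reads of Gstm1 and Gstp1 may be shared with close relatives, since 33.0% and 62.3% of their 50-base stretches occur in other transcripts, for Gstp1 mainly those of Gstp2. Prdx6, which also uses glutathione, had a log2 fold change of 0.068. Of 23 further genes of glutathione transfer and turnover that were tested, 10 were above 0 and 13 below. Transferases were on both sides, such as Gstt3 at 0.23 and Gstm7 at -0.34. The 5 peroxidases of the set were also all below 0, which made 12 of 12 glutathione peroxidases and transferases of the set lower in value. Over all genes tested, 7213 of 14443 were below 0. The families were joined after the values were seen, without a test. The count was 8 of 12 without mutant replicate 1, 9 without wild-type replicate 3, and 10 without wild-type replicate 2, without mutant replicate 2 or among the 4 libraries that had next to no Y-linked reads.

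Thioredoxin carries electrons from NADPH, through thioredoxin reductase, to peroxiredoxins and other proteins. Txn1 and Txnrd1 form the cytosolic pair and Txn2 and Txnrd2 the mitochondrial pair. Txn1 led at 280.0 FPKM, Txn2 and Txnrd1 were level at 91.0 and 90.5 FPKM with either one higher in 3 of 6 libraries, and Txnrd2 had 26.3 FPKM. Txn1 had 269, 294 and 251 FPKM in the Ramp1+/+ libraries and 263, 264 and 339 FPKM in the mutants, where mutant replicate 3 alone was above the wild-type values. Its fold change was 1.06 (interval 0.86 to 1.31).

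Txnrd2 was 1 of the 2 genes whose groups did not overlap. In CPM, counts scaled to library size with the TMM method, which corrects for differences in composition, it had 50.8, 46.6 and 44.6 in the Ramp1+/+ libraries and 55.0, 51.8 and 51.8 in mutant cells. The gap between the groups was small, and in FPKM wild-type replicate 1 (26.87) and mutant replicate 2 (26.84) overlapped. The fold change was 1.12 (interval 0.94 to 1.32; edgeR unadjusted p = 0.173). All 4 thioredoxin genes had log2 fold changes above 0, from 0.042 to 0.16, and 2 to 4 of the 4 did in the 14 other settings.

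Superoxide dismutase 1 works in the cytosol, superoxide dismutase 2 in the mitochondrial matrix, and catalase in peroxisomes. Cat averaged 123 FPKM, Sod1 111 FPKM and Sod2 34.3 FPKM, and Cat was above Sod1 in 4 of 6 libraries. Cat had 125, 111 and 131 FPKM in the Ramp1+/+ libraries and 125, 134 and 114 FPKM in the mutants, with groups that overlapped and a log2 fold change of 0.030 (interval -0.20 to 0.26). Sod2 had 33.8, 34.7 and 37.6 FPKM in the Ramp1+/+ libraries and 33.8, 31.1 and 34.9 FPKM in the mutants. Mutant replicate 2 was the lowest and wild-type replicate 3 the highest, and the fold change was 0.94 (interval 0.81 to 1.09). Sod1 had a fold change of 1.01, with 23.1% of its 50-base stretches shared with an annotated copy. The ratio of Sod1 to Sod2 was 3.12 ± 0.18 in the Ramp1+/+ libraries and 3.35 ± 0.34 in mutant cells (exact two-sided permutation p = 0.3). In all 10 ratios between genes of a system were tested, with adjusted p-values of 0.75 to 1, and 3 against 3 libraries cannot give a p below 0.1.

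Nrf2, the product of Nfe2l2, is known to switch on many such genes when oxidants modify Keap1, the protein that otherwise has it degraded. Nqo1, a quinone reductase, and Hmox1, the inducible haem oxygenase that frees iron from haem, are its classic targets, while Hmox2 is the constitutive haem oxygenase. Nfe2l2 had 63.5, 59.3 and 77.2 FPKM in the Ramp1+/+ libraries and 76.6, 84.1 and 64.8 FPKM in the mutants. Wild-type replicate 3 was among the higher libraries and mutant replicate 3 among the lower, so the groups overlapped, and the fold change was 1.13 (interval 0.91 to 1.40; edgeR unadjusted p = 0.224). Keap1 had a fold change of 0.97 (interval 0.80 to 1.17). Nqo1 had 13.1, 15.1 and 17.1 FPKM in the Ramp1+/+ libraries and 13.5, 10.4 and 19.0 FPKM in the mutants, where both the lowest and the highest library were mutant. Hmox1 had 5.70, 11.5 and 9.83 FPKM in the Ramp1+/+ libraries and 5.82, 6.87 and 13.0 FPKM in the mutants. As with Gpx4, replicate 1 was the lowest of its group in both genotypes, and the fold change was 0.95 (interval 0.52 to 1.75).

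Hmox2 was the other gene with separate groups. In CPM it had 98.9, 92.97 and 97.4 in the Ramp1+/+ libraries and 100.3, 100.5 and 99.3 in mutant cells, a difference of 0.053 on the log2 scale (interval -0.15 to 0.26). In FPKM the groups overlapped, at 52.7 to 57.6 in the Ramp1+/+ libraries and 56.9 to 59.0 in mutant cells. The difference was thus smaller than the median size over the set, 0.086.

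Nrf2 binds antioxidant response elements with the core TGACNNNGC. This core was searched on both strands in RefSeq promoters (GRCm38.p6), from 250 bases before to 50 after the gene start, for the 33 members that have one in the table. Hmox1, Prdx6, Gsr and Gclc have none there and were not searched. The core was found in 7 of the 33 (21.2%), against 3781 of all 27025 genes in the table and 1663 of 9647 (17.2%) protein-coding genes tested here. The 7 sites are shown to let the cores and their flanks be compared; a match is no measure of binding. Capitals mark the core, and each sequence reads 5′ to 3′ on the strand that holds it.
Gclm, chr3:122245415-122245439, minus strand: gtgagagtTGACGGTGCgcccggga
Gstm5, chr3:107895804-107895828, plus strand: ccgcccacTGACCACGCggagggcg
Mgst1, chr6:138140463-138140487, minus strand: ccgcctccTGACCGTGCcaagcccc
Nfe2l2, chr2:75704887-75704911, minus strand: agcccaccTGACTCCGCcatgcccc
Prdx1, chr4:116685458-116685482, minus strand: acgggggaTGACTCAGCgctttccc
Sod1, chr16:90220698-90220722, minus strand: cctgagtcTGACCACGCccaccttg
Txnrd1, chr10:82859106-82859130, minus strand: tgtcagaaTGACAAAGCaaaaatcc
The log2 fold changes of these 7 genes ran from -0.17 for Mgst1 to 0.18 for Nfe2l2, and none passed. Further sites may lie outside these windows, which were not searched.

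The libraries of a genotype also differed among themselves. Mutant replicate 1 was the lowest of the 6 libraries for 10 of the 37 genes and mutant replicate 2 the highest for 12. Over all genes the same libraries were lowest for 19.4% and highest for 19.2%. The median deviation of the 37 genes from their 6-library mean was -0.079 on the log2 scale in mutant replicate 1 and 0.033 and 0.066 in mutant replicates 2 and 3, against -0.040, 0.063 and -0.0096 in wild type. Without mutant replicate 1 the count of members with higher values was 24 of 37 in place of 16.

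**Figure D4:**
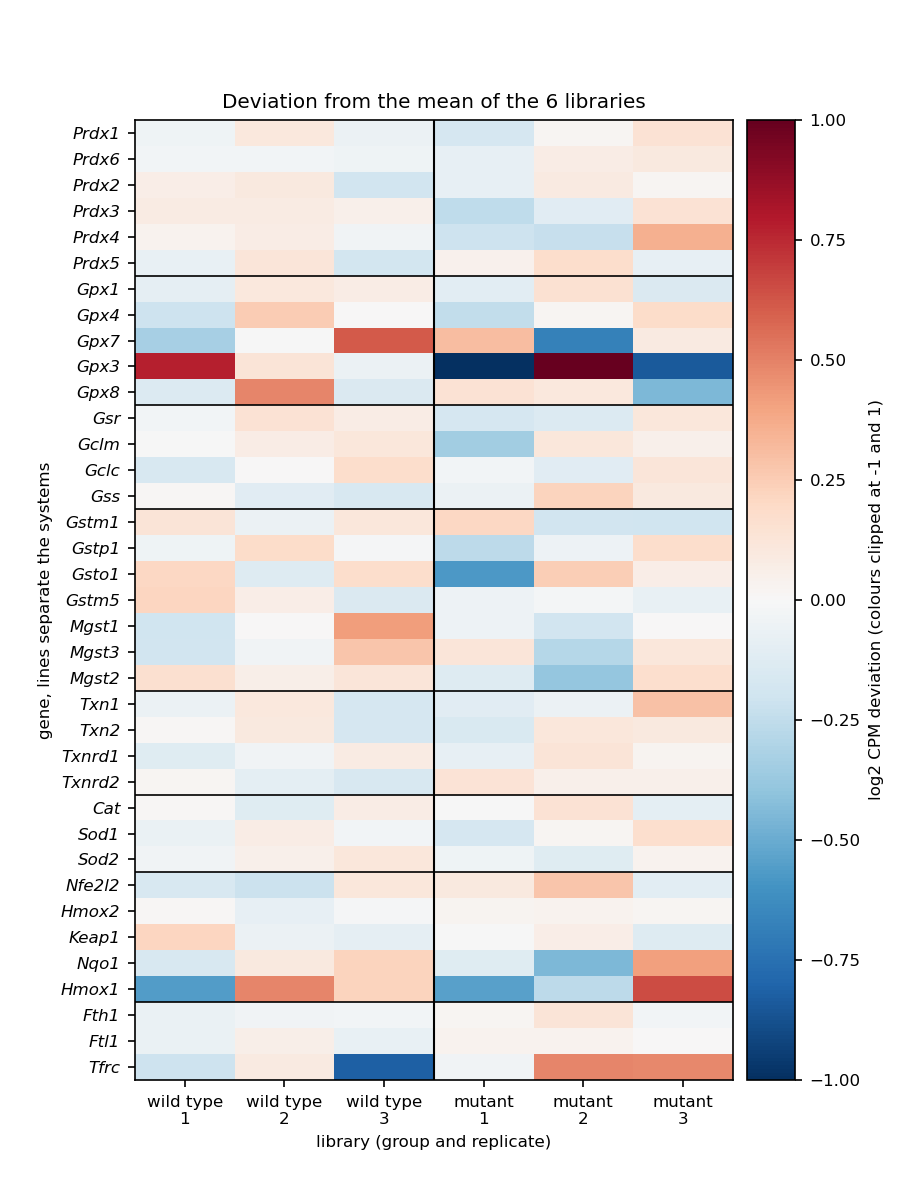
Deviation of each gene (rows, by system) from its mean over the 6 libraries (columns) in log2 CPM, red above and blue below the mean, with colours clipped at -1 and 1. Columns of a genotype differ from each other, most for Gpx3, Hmox1, Gpx7 and Tfrc, and Gsto1 stands out as low in mutant replicate 1.

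The other genes of these pathways were examined from 6 lists of 133 genes, of which 123 were tested. edgeR called 0 of the 123 at an adjusted p under 0.05, DESeq2 0 of 127, and edgeR called 3 at an unadjusted p under 0.05, 1 higher and 2 lower, where 2.28% and 1.70% of all genes were. Log2 fold changes were above 0 for 51 and below 0 for 72, with a median of -0.026. Groups were separate in scaled counts with higher mutant values for 2 of the 123, Slc40a1 and Pgd. They were separate with lower values for 4, Cul3, Ppox, Gstt2 and Sepsecs. Over all genes these shares were 5.87% and 4.38%. The 3 genes with an edgeR unadjusted p under 0.05 were Slc40a1, described above, Ppox and Cul3. Ppox, an enzyme of haem synthesis, had 4.27, 5.81 and 3.93 FPKM in the Ramp1+/+ libraries and 2.42, 2.87 and 3.29 FPKM in the mutants, with separate groups (log2 fold change -0.71, SE 0.23; edgeR adjusted p = 0.999). Cul3, the ubiquitin ligase scaffold through which Keap1 acts, had 46.9, 13.0 and 7.60 FPKM in the Ramp1+/+ libraries and 7.0, 6.87 and 6.26 FPKM in the mutants. The wild-type libraries alone spanned a wide range, with wild-type replicate 1 far above the rest, and the log2 fold change was -1.74 (SE 0.59; edgeR adjusted p = 0.999).

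Within the lists, 5 of 16 thioredoxin, glutaredoxin and methionine sulfoxide reductase genes were above 0, 10 of 23 genes of glutathione transfer and turnover, and 4 of 15 genes that supply NADPH. The same count was 13 of 26 for Nrf2 partners and other antioxidant genes, 14 of 33 for iron and haem genes and 5 of 10 for sources of superoxide. Txnip, which binds and inhibits thioredoxin, was abundant at 392 ± 23.8 FPKM in the Ramp1+/+ libraries and 443 ± 61.7 FPKM in the mutants (SD, n = 3 each), a log2 fold change of 0.18. Glrx2, a mitochondrial glutaredoxin, had -0.20 and Nxn, nucleoredoxin, -0.20. The NADPH-producing or pentose phosphate genes Idh2, Taldo1 and Tkt had -0.15, -0.15 and -0.10. Idh2 had 214, 210.4 and 206 FPKM in the Ramp1+/+ libraries and 179, 185 and 204 FPKM in the mutants, with separate groups in FPKM but not in scaled counts. The same held for the groups of Taldo1 and Tkt. Gstt2, Gsto2 and Ggt5 had -0.19, 1.14 and -0.34, where Gsto2 was at 0.20 to 2.46 FPKM. Sepsecs, which makes selenocysteine for enzymes such as Gpx1 and Gpx4, had -0.19 and the selenoprotein gene Selenok 0.15. Steap3, which reduces iron in endosomes after uptake by the transferrin receptor, had -0.62. Cyba, a subunit of NADPH oxidase, had 0.13, Xdh 0.55 and Ncf4 -0.26.

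As checks on the libraries, counts summed to between 22796771 and 26734561 per library, and Ramp1 stood at 88.3 to 91.4 FPKM in the Ramp1+/+ libraries and 1.35 to 3.53 FPKM in the mutant. All 16 HSC markers averaged at least 1 FPKM and summed to 1745 to 2020 FPKM in the Ramp1+/+ libraries and 1728 to 2182 FPKM in the mutants. Neutrophil markers, 14 of the 16 tested higher in mutant, summed to 109 to 892 and 257 to 1240.3 FPKM. Erythroid markers, 8 of 17 higher, summed to 1198 to 1253 and 1092.5 to 1334 FPKM, of which Car2 made up 994 to 1221. The haemoglobin gene Hba-a1 had 1.47 to 14.8 FPKM in the Ramp1+/+ libraries and 14.2 to 61.0 FPKM in the mutants. Car1 went the other way, at 2.26 to 31.5 and 0.81 to 14.2 FPKM, and the groups overlapped for both. Of the 17 erythroid markers 9 were lower in mutant. Macrophage and monocyte markers, 8 of 12 higher, summed to 519 to 591 and 508 to 655 FPKM. Megakaryocyte markers (3 of 9 higher) gave 175 to 229 and 157 to 228, lymphoid markers (4 of 6) 86.5 to 114 and 93.3 to 104, and endothelial and stromal markers (2 of 7) 40.4 to 47.0 and 39.9 to 52.4 FPKM. Gp6 and Pax5 were listed at 0 in every library. G2/M genes, 0 of 18 higher, summed to 545 to 636 and 359.8 to 701 FPKM, and immediate early genes, 13 of 15 higher, to 203 to 293 and 225 to 476 FPKM. Y-linked genes had 6527 and 6137 reads in replicate 1 of wild type and mutant, against 0 to 2 elsewhere. Of these differences only that in Y-linked reads entered a fit. The log2 fold change of Tfrc was 0.58 with a yes-or-no covariate for more than 100 such reads, and 0.78 within the libraries below that. The part of the other differences in the values of Tfrc, Slc40a1, Hmox1 and Gpx4 was not tested. Fewer cells of a type cannot be told apart from less RNA per cell.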

How the data were processed

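Per the submitters' processing notes CASAVA, STAR, HTSeq 0.6.1, DESeq2 and build mm10 were used, with no role given; annotation and strand setting are not given in the sources used here. The authors deposited raw read counts per gene with FPKM, a size-factor-normalized signal (not used), log2 fold changes and p-values. The deposited FPKM equalled counts scaled to gene length and to the total of counted reads (median ratio 0.9998 to 1.0 per library). The count table holds only genes with reads in mutant replicate 1 or 2.

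edgeR 4.0.16 in R 4.3.3 (TMM, filterByExpr, quasi-likelihood F test, two-sided, Benjamini-Hochberg over 14443 genes, threshold 0.05) was fitted to the whole table. SE is the log2 fold change over the square root of F. Tested on simulated data, drawn once, the fit missed most small changes and some large ones. It recovered 8% of 1.5-fold, 48% of 2-fold, 76% of 4-fold and 78% of 8-fold changes. Unchanged genes made up 7.89% of its calls, and a single draw cannot tell whether that exceeds the threshold. DESeq2 1.42.0 and limma 3.58.1 on log2(FPKM + 1) and log2(FPKM + 0.1), for genes with at least 1 FPKM, were alternatives. Depth was 22796771 to 26734561 counts per library. No 2 libraries differed by as little as sampling noise. Of 304 list symbols, 9 were matched by gene identifier.

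Members and lists were chosen with earlier results of these data known. Named are members with separate groups, the 10 smallest unadjusted p, the most abundant of each system, and up to 3 genes per pathway list (at least 1 FPKM, smallest p); others were named after their values were seen. Ratios were chosen after seeing values.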

Additional observations from a re-analysis of the deposited data

How the results depend on the processing

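Under 14 alternatives (other size factors, DESeq2, no filter, limma at 2 pseudocounts, replicate block, presence of Y-linked reads as a yes-or-no covariate, only the libraries without Y-linked reads, and each library left out) 0 members and 0 pathway genes were called. Genes called over the whole table were 44 with DESeq2 in place of 3, and 2 to 6 when a library was left out, 6 without mutant replicate 2. The median log2 fold change of the members, -0.035, was 0.048 within the 4 libraries without Y-linked reads (2 against 2) and -0.054 to 0.050 when a library was left out, the highest without mutant replicate 1. Members with higher values numbered 13 to 24. Of the 37 members 17 had the same sign in all 14 alternatives and 20 did not. With the replicate block 2 genes and 0 members were called, 15 members had higher values and the median was -0.036. Same-numbered libraries correlated at 0.14, 0.0018 and -0.094 in their deviations, so the numbers were not taken to pair them. The Y-linked covariate was added after seeing the data. With 3 libraries a group the 95% intervals of 8 members reached beyond 1.5-fold, most of them low in counts or variable between libraries.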
